A study of Homo sapiens with 8 samples.

Results

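The miR-378 microRNAs listed in small RNA libraries of HEK293 cells are described here, with the division of their counts between miR-378a-3p and its near-identical copies. Members were the entries of the deposited table whose identifier begins with hsa-miR-378 followed by a letter or a hyphen. This gave 4 of 2867 entries, namely miR-378a-3p, miR-378i, miR-378e and miR-378d, and 903 of the 2867 carry names of known microRNAs. HEK293 is an established human embryonic kidney line. Cells in 4 libraries had been transfected with an antisense oligonucleotide (ASO) at 100 nM, and 4 libraries came from cells without it, harvested after 48 h in the series' design. miR-31, the intended target, is in the library names, and the design asks whether the ASO affected other small RNAs. No group received an unrelated ASO, the genotype is that of the line in every library, and separate cultures are not stated in the labels. The p-values below therefore weigh only library-to-library spread, which may be technical.

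MicroRNAs are short RNAs that guide Argonaute proteins to messenger RNAs, and their target choice depends mostly on the seed, bases 2 to 8 from the 5′ end. miR-378a is cut from a hairpin inside PPARGC1B, which encodes the transcriptional coactivator PGC-1β of mitochondrial and fat metabolism. It is known as an abundant microRNA of muscle and brown fat, and as a regulator of energy metabolism. The lettered copies come from other hairpins scattered over the genome.

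The mature sequences show how little separates the main pair of entries. RefSeq's microRNA table (GRCh38.p14), which held a mature sequence for 2 of the 4 members, gives them as follows, 5′ to 3′ with the seed in capitals.
miR-378a-3p: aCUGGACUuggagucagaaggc
miR-378i: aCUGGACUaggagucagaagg
The seeds were identical. Over the 21 bases that both hold there was 1 difference, U9A, where positions count from 1 at the 5′ end, the first letter is the base of miR-378a-3p and the last that of miR-378i. It lies 1 base beyond the seed. The same seed was found in 7 of the 2545 mature sequences of that table, the others being miR-378b, miR-378c, miR-378f, miR-378h and miR-422a, which were not analysed here. miR-378a-5p, cut from the opposite arm of the miR-378a hairpin, was not analysed here either.

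The hairpins of miR-378a and miR-378e are shown because no mature sequence was held for miR-378e. They have a stretch in common, and reads that start with it are told apart only by the bases after it. Capitals mark the longest run of each hairpin that is also found in miR-378a-3p.
MIR378A: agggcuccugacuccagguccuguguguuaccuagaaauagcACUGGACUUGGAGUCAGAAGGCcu
MIR378E: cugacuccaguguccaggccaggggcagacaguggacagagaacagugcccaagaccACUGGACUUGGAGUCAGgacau
In MIR378E the run was 17 bases long and matched bases 1 to 17 of miR-378a-3p. A read that lies wholly within these 17 bases could come from either hairpin, while a longer one would tell them apart. How the counting treated reads that match several entries, or that hold a mismatch, is not given in the sources used here. A division of counts between these entries is uncertain to that extent. Over its first 22 bases miR-378c, which was not analysed here, differs from miR-378a-3p only at bases 21 and 22. Shortened reads of miR-378c would therefore also match miR-378a-3p. No other entry of the table had the same 8 counts as a member.

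The genes of the family stand in different surroundings (GRCh38, GENCODE 29). MIR378A is an intronic gene of PPARGC1B (chromosome 5, 149732825 to 149732890, plus strand). MIR378E, on the same chromosome and strand at 170028488 to 170028566, is in an intron of DOCK2, a regulator of leukocyte migration. MIR378I overlaps an exon of TNFRSF13C outside its coding part (chromosome 22, 41923222 to 41923297, minus strand). TNFRSF13C encodes the BAFF receptor of B cells. In MIR378I the mature sequence takes up bases 7 to 27 of a hairpin of 76 bases, which is the 5′ arm, whereas in MIR378A the miR-378a-3p sequence takes up bases 43 to 64 of 66, the 3′ arm. MIR378D1, a gene of miR-378d, is intronic to C4orf50 (chromosome 4, 5923275 to 5923328, minus strand).

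Total counts ran from 8168828 to 11677123 per library. Levels are TMM-normalized CPM, which are counts brought to a common size by the summed counts of the tested entries rather than by these totals, and not divided by length, and the listed length was 22 nucleotides for miR-378a-3p, miR-378i and miR-378e and 18 for miR-378d. Ligation and PCR in library preparation favour some sequences over others, so levels of different microRNAs compare less well than 1 microRNA between libraries. Of the 7 microRNAs named as HEK293 markers, all were listed, with a summed level of 168007 to 190956 CPM with ASO and 181609 to 233041 CPM in controls, counting 1 entry for miR-92a. Of 6 blood cell markers, miR-142-3p and miR-150-5p were listed, with no count above 7 in any library, and the other 4 were not analysed here. In bulk RNA a smaller share of cells expressing a microRNA and less of it per cell cannot be told apart.

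The family took 0.623% to 1.07% of all counts of a library, and its order of levels was miR-378a-3p, then miR-378i, with miR-378e far lower and miR-378d listed above 0 in 1 library. The summed level averaged 7613 ± 1043 CPM over ASO libraries and 9017 ± 1535 CPM over controls (SD, n = 4 each). From the first to the fourth library, it was 8353, 7365, 6242 and 8492 CPM with ASO and 11157, 9084, 8075 and 7754 CPM without. Control library 1 held the most and ASO library 3 the least, and the ranges of the groups overlapped.

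miR-378a-3p, the dominant member, ranked between 22nd and 38th among the 903 known entries in each library. The 4 ASO libraries, in order of number, held 6435, 5880, 5070 and 6820 CPM (62714, 69609, 56371 and 70198 counts). The 4 controls held 9215, 7363, 6470 and 6244 CPM (92875, 68860, 53673 and 70742 counts). Control libraries 1 and 2 stood above all ASO libraries, while control libraries 3 and 4 lay within the ASO range. Means were 6051 ± 759 CPM with ASO and 7323 ± 1351 CPM in controls (SD, n = 4 each). The model put the log2 fold change at −0.28 (SE 0.15, with −0.62 to 0.06 as its 95% interval), a 1.21-fold lower level with an interval from 1.53-fold lower to 1.05-fold higher, and edgeR's quasi-likelihood test gave an adjusted p of 0.464. Mean log2 levels differed by −0.27 (exact two-sided permutation p = 0.143), where 4 against 4 libraries allow no p below 0.0286. Without control library 1 the log2 fold change was −0.13 and without ASO library 3 it was −0.16.

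miR-378i, which shares the seed, was the second member. The ASO libraries held 1903, 1470, 1155 and 1656 CPM in order of number, and the controls 1917, 1701, 1500 and 1493 CPM. ASO library 1 was close to the highest control, and 2 ASO libraries lay below all controls. Means were 1546 ± 315 CPM with ASO and 1652 ± 201 CPM in controls, with a log2 fold change of −0.10 (SE 0.16, 95% interval −0.47 to 0.28, adjusted p = 0.850 by edgeR). The direction turned without ASO library 3, to 0.06, and the value was −0.0012 without control library 1.

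miR-378e was a minor member at 137 to 246 counts per library. In order of number, its level was 14.7, 15.0, 16.8 and 16.7 CPM with ASO, against 24.4, 20.0, 16.5 and 17.9 CPM without. The groups overlapped narrowly, since control library 3 lay below the highest ASO libraries. Means were 15.8 ± 1.11 CPM with ASO and 19.7 ± 3.44 CPM in controls, with a log2 fold change of −0.32 (SE 0.14, 95% interval −0.64 to 0.01, adjusted p = 0.445 by edgeR; exact permutation p = 0.0857). Without control library 1 it was −0.18. At the lowest count, in control library 3, Wilson's 95% limits were 14.2 and 19.8 CPM before scaling. Such intervals cover counting error only.

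miR-378d was at 0 in 7 libraries and at 734 counts in control library 3, or 88.5 CPM. That placed it above miR-378e in that library, where miR-378e stood at 16.5 CPM. In each of the 7 other libraries a count of 0 allows up to 3 counts, which is 0.257 to 0.312 CPM before scaling. Of the 903 known entries, 10 had at least 100 counts in a single library and 0 in the other 7, and 2 of them were in control library 3, miR-378d and miR-548ah-3p with 107 counts. The other 8 fell in ASO libraries 1 to 4 and control library 2, and 3 of the 10 had a higher count than miR-378d. With 1 library above 0, miR-378d did not enter the test.

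**Figure D1:**
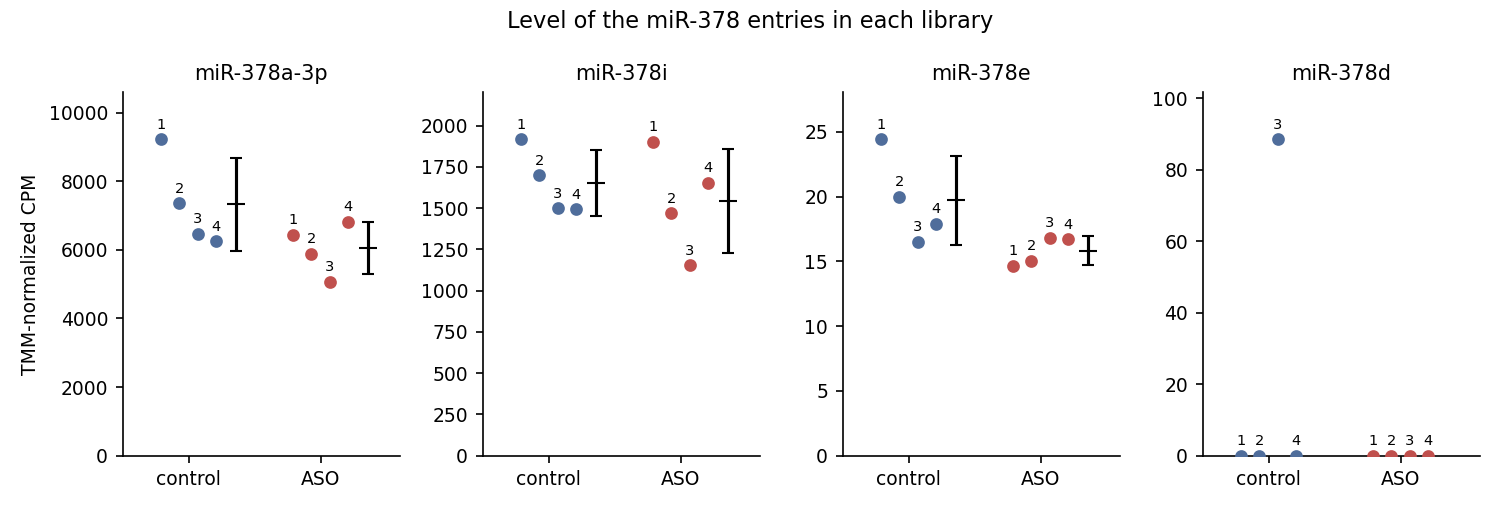
Level of each miR-378 entry in TMM-normalized CPM (vertical axes, each from 0) in the 4 control libraries (blue) and the 4 ASO libraries (red), with the library number above each point and the mean ± SD as a black bar for the 3 tested entries. Control library 1 is highest for miR-378a-3p, miR-378i and miR-378e, the groups overlap in every panel, and miR-378d is above 0 in control library 3 alone.

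In all, 3 of the 4 members passed the filter on low counts, and 0 of the 3 passed the threshold of an adjusted p of 0.05 in edgeR's quasi-likelihood test, where 0.134% of the 745 tested entries did (1 entry). At an unadjusted p under 0.05 there were 0 of 3 members in the edgeR fit, against 10.5% of tested entries. At an adjusted p under 0.05 DESeq2 also called 0 of 3, against 1.77%. The ASO and control libraries were apart for 0 of 3 members, against 8.32% of tested entries. All 3 fitted log2 fold changes were below 0, with a median of −0.28, against a median of 0.01 over the 745 tested entries, of which 385 had a fold above 1. The members share the same 8 libraries, so their directions are not independent.

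**Figure D2:**
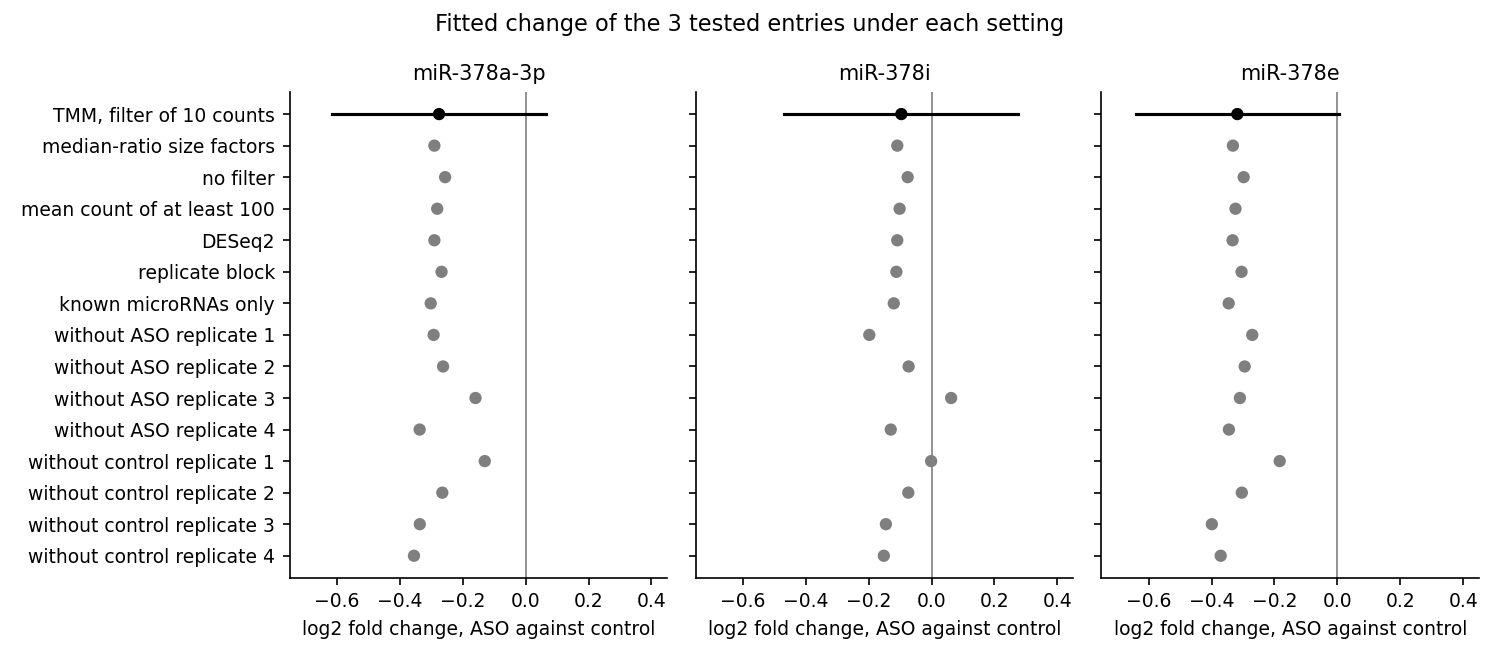
Fitted log2 fold change of ASO against control (horizontal axis, 0 marked by a grey line) for miR-378a-3p, miR-378i and miR-378e under each processing setting (rows), with the 95% interval drawn for the setting used in the text (black). The 3 intervals include 0, and the points of all 3 entries move toward 0 without control library 1.

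Shares within the family do not depend on scaling between libraries. miR-378a-3p took 77.0%, 79.8%, 81.2% and 80.3% of the miR-378 counts in the ASO libraries, in order of number, and 82.6%, 81.1%, 80.1% and 80.5% in the controls. ASO library 1 was lowest and control library 1 highest, and the other 6 libraries lay between 79.8% and 81.2%. The mean share was 79.6% ± 1.80 with ASO and 81.1% ± 1.09 in controls (SD, n = 4 each), a difference of −1.48 points that an exact two-sided permutation test did not separate (p = 0.229). Without ASO library 1 the difference was −0.62 points.

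miR-378i took nearly all of the remainder. Its share was 22.8%, 20.0%, 18.5% and 19.5% with ASO, in the same order, and 17.2%, 18.7%, 18.6% and 19.2% without. In ASO library 1 the Wilson 95% interval was 22.5% to 23.1%, and in control library 1 it was 17.0% to 17.4%, neither of which met the interval of any other library. These intervals treat reads as independent, which PCR copies are not, so at this depth they are narrow. Whether the libraries differed by more than the sampling of molecules cannot be read from them. miR-378a-3p outnumbered miR-378i by 3.38 to 4.81 times, with a median of 4.25 over the 8 libraries. ASO library 1 also had the most entries above 0 of the 8 libraries, 1317 against 1099 to 1261 in the others, and whether this bears on the share was not tested.

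The shares of the minor members were small. miR-378e took 0.176% to 0.269% of the miR-378 counts, lowest in ASO library 1 and highest in ASO library 3. miR-378d took 1.10% in control library 3 (Wilson 95% interval 1.02% to 1.18%). With the count restricted to the 3 entries above 0 in every library, the difference in the share of miR-378a-3p was −1.70 points (exact permutation p = 0.114).

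**Figure D3:**
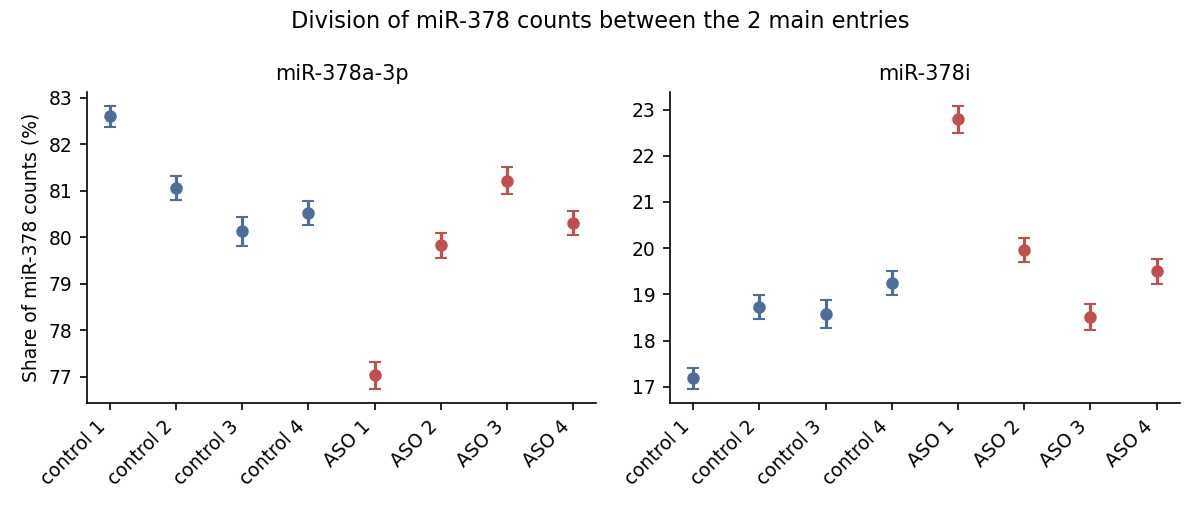
Share of all miR-378 counts, in percent (vertical axes, which do not start at 0), that fell to miR-378a-3p (left) and miR-378i (right) in each control (blue) and ASO (red) library, with Wilson 95% intervals as bars. ASO library 1 has the lowest share of miR-378a-3p, 77.0%, and the highest of miR-378i, 22.8%, and control library 1 has the reverse, 82.6% and 17.2%.

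Families with other sets of related copies were set beside this division, as a description. In the miR-320 family, miR-320a-3p took 89.1% to 90.3% of the counts of 5 entries, and miR-320b took 7.44% to 8.51%. In the let-7 family with miR-98-5p, let-7a-5p took 32.5% to 34.5% of the counts of 9 entries. The share of the leading entry spanned 5.56 points over the 8 libraries in the miR-378 family, 1.25 points in the miR-320 family and 1.97 points in the let-7 family. Without ASO library 1 it spanned 2.77 points in the miR-378 family, and 1.25 and 1.97 points in the others. No test of this difference was made.

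Over the 8 libraries, miR-378a-3p and miR-378i varied together. On log2 levels Pearson's r was 0.82 (exact permutation p = 0.0184, adjusted p = 0.0432 over 3 relations) and Spearman's rho 0.86 (exact permutation p = 0.0107, adjusted p = 0.0321). Without ASO library 3 and control library 1, the 2 libraries farthest from the median of miR-378a-3p, r was 0.49, so the relation rests in part on those libraries. For miR-378a-3p and miR-378e, r was 0.78 (exact permutation p = 0.0288, adjusted p = 0.0432) and rho 0.50 (exact permutation p = 0.216, adjusted p = 0.324), with r at 0.72 without the same 2 libraries. For miR-378i and miR-378e, r was 0.34 (exact permutation p = 0.401, adjusted p = 0.401) and rho 0.24 (exact permutation p = 0.582, adjusted p = 0.582), with r at −0.12 without them. Both groups are pooled in these values, and the levels share each library's scaling factor. How reads with a mismatch or several matches were assigned is not given, so the counts of these entries may not be independent. Within a group there are 4 libraries, too few for a test, and the relations with miR-378e had opposite signs there. For miR-378a-3p and miR-378e r was −0.27 over the ASO libraries and 0.96 over the controls, and for miR-378i and miR-378e it was −0.61 and 0.97. For miR-378a-3p and miR-378i it was 0.90 and 0.99.

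**Figure D4:**
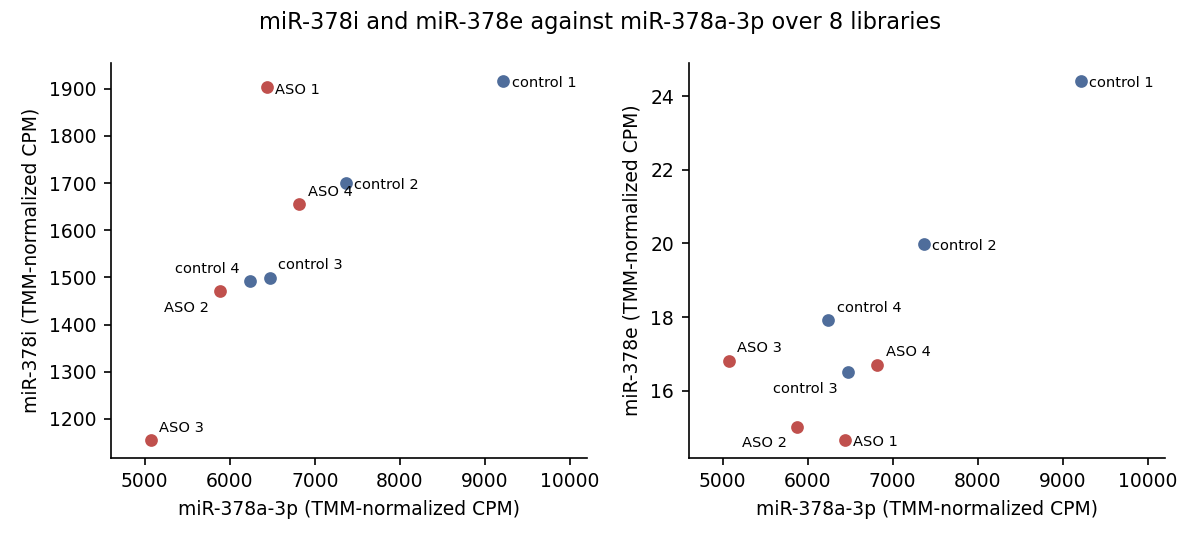
Level of miR-378i (left) and miR-378e (right) against that of miR-378a-3p, all in TMM-normalized CPM on linear axes that do not start at 0, with 1 point per library in control (blue) and ASO (red). Control library 1 is at the upper right in both panels, ASO library 3 is lowest for miR-378i and miR-378a-3p, and ASO library 1 holds more miR-378i than other libraries with a like level of miR-378a-3p.

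The profile of miR-378a-3p over the libraries was closer to that of some unrelated microRNAs than to those of its copies. Pearson correlations of log2 level over the 8 libraries were taken for 317 known entries outside the family with a mean count of at least 100. The highest were those of miR-129-5p (0.98), miR-548au-3p (0.98), miR-128-1-3p (0.97), miR-128-2-3p (0.97) and miR-4664-3p (0.97). Over the 317 entries the median was −0.22, the lowest was −0.99 and 137 were above 0, so opposite profiles were as close. The 2 miR-128 entries carry the name of 1 microRNA made from 2 genes, so the 5 are not independent. By the same measure miR-378i, at 0.82, would rank 54th and miR-378e, at 0.78, 61st. miR-129-5p and miR-128 are known for their abundance in neurons. The 5 were picked as the most like miR-378a-3p, which was itself highest in control library 1. That each stood higher in control library 1 than in the mean of either group follows largely from this choice. miR-129-5p was at 796 CPM there, against means of 408 ± 56.0 CPM with ASO and 563 ± 167 CPM in controls. Without control library 1 the 5 correlations were 0.92 to 0.96, that of miR-378i was 0.82 and that of miR-378e 0.41. These values describe likeness over 8 libraries that share their scaling, and carry no test.

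MicroRNAs known from the tissues and processes in which miR-378a acts gave 0 calls by edgeR. Over all 745 tested entries 0.134% were called and 385 had a fold above 1, so lists of this size would seldom hold a call. Of 8 muscle microRNAs 3 were tested, and 0 rose and 0 fell (2 with a fold above 1, median log2 fold change 0.11). The most abundant was miR-486-5p, which averaged 82.1 ± 8.19 CPM in ASO libraries and 83.1 ± 1.91 CPM in the rest (adjusted p = 0.968, log2 fold change −0.02). miR-1-3p, which promotes muscle differentiation, had the smallest p (log2 fold change 0.19, adjusted p = 0.703). The 5 listed muscle markers that include miR-1-3p, miR-133a-3p and miR-499a-5p but not miR-486-5p summed to 25.9 to 35.4 CPM over all libraries, far below miR-378a-3p.

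Of 11 brown fat and adipocyte microRNAs 9 were tested, and 0 rose and 0 fell (7 with a fold above 1, median 0.15). The 7 include miR-365a-3p and miR-365b-3p, which have nearly the same counts and are not independent. miR-196b-5p, a HOX-embedded microRNA, averaged 6772 ± 679 CPM in ASO libraries and 6756 ± 189 CPM in the rest (adjusted p = 0.982, log2 fold change 0.0034), near the level of miR-378a-3p. miR-155-5p, which restrains brown fat differentiation, had the smallest p (log2 fold change 0.24, adjusted p = 0.402). Of 11 listed entries of microRNAs of lipid and mitochondrial metabolism 10 were tested, and 0 rose and 0 fell (9 with a fold above 1, median 0.34). The tested ones include 2 entries of miR-103a, which are not independent. The untested entry was miR-103a-3p, which was above 0 in fewer than 4 libraries. It averaged 7134 ± 8260 CPM in ASO libraries and 0 CPM in the rest. miR-27b-3p, an inhibitor of fat cell formation, was its most abundant member with 16696 ± 1340 CPM in ASO libraries and 15624 ± 2003 CPM in the rest (log2 fold change 0.10, adjusted p = 0.758). miR-122-5p, the main liver microRNA, had the smallest p in that list (log2 fold change 1.30, adjusted p = 0.0516 by edgeR). Its level averaged 29.7 ± 7.34 CPM in ASO libraries and 12.1 ± 2.02 CPM in the rest.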

How the data were processed

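Small RNA libraries were prepared from total RNA with a NEB kit, per the labels' protocols. Per the submitters' processing notes, bcl2fastq 2.20, Trimmomatic 0.30, edgeR 3.4.6 and GRCh38 were used. For the aligner, the counter and the annotation, the software is not given in the sources used here. The authors deposited whole-number counts per entry and library, which were used for every test, and CPM values headed TPM, which differed from counts divided by library totals by at most 0.223 CPM. The deposited lengths were used only as a description (other unit, in nucleotides).

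Groups followed the library titles. The 745 entries that were above 0 in 4 or more of 8 libraries and averaged 10 or more counts were tested with edgeR 4.0.16 in R 4.3.3, by the quasi-likelihood test on counts with TMM scaling (factors 0.964 to 1.02, on the summed counts of tested entries), no block and Benjamini-Hochberg adjustment over all 745 at 0.05. DESeq2 1.42.0 was an alternative. Shares and log2(CPM + 1) levels were compared by exact permutation tests (SciPy 1.17.1), and shares carry Wilson 95% intervals. The ratio of miR-378a-5p to miR-378a-3p, also planned, was not run, since miR-378a-5p was not analysed here. Named microRNAs were all miR-378 entries, the 5 most like miR-378a-3p, and the most abundant and smallest-p entry of each list. miR-103a-3p, miR-365a-3p, miR-365b-3p, miR-548ah-3p, miR-142-3p and miR-150-5p were named after their values were seen. The members and lists were chosen with earlier results of these data known.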

Additional observations from a re-analysis of the deposited data

Results flagged for a closer look

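miR-378d stood at 88.5 CPM in control library 3 and at 0 in the other 3 controls, so 1 control library was far from the rest. All 4 ASO libraries were at 0. Of 15 groups of 4 libraries examined for the members and their shares, this was the 1 with a library that far apart. The usual rate by chance, about 1 in 20 such groups, does not apply here. With 3 libraries at 0, any count in the fourth would have been flagged. The cause was not tested.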

How the results depend on the processing

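The count of miR-378 members called was 0 under all 14 alternatives tried, which were median-ratio scaling, no filter, a mean count of at least 100, DESeq2, a replicate block, known microRNAs only and each of the 8 libraries left out (0 to 0). Unadjusted p in edgeR's test varied more. For miR-378e it was 0.0387 with known microRNAs only and 0.0459 with a mean count of at least 100. Without control library 3 it was 0.0248, and without control library 4 it was 0.0471. For miR-378a-3p it was 0.0484 without control library 4. In the other settings, and for miR-378i in all, no unadjusted p was under 0.05. Over all tested entries the count of calls, 1 in the edgeR fit, was 13 with DESeq2, 5 with a mean count of at least 100, 4 with known microRNAs only, and 0 with no filter or a replicate block, and 0 to 5 on leaving out 1 library. Leaving out 1 library moved the log2 fold change of miR-378a-3p between −0.35 and −0.13, that of miR-378e between −0.40 and −0.18, and that of miR-378i between −0.20 and 0.062, its value without ASO library 3, where it reversed. The difference in the share of miR-378a-3p lay between −2.02 and −0.62 points. Libraries sharing a number had deviations correlated at 0.01, 0.03, 0.30 and −0.04 for numbers 1 to 4. Pairs of an ASO and a control library with different numbers ran from −0.26 to 0.18, so the value for number 3 was the highest. Whether libraries sharing a number were paired cannot be settled from so few values. With the replicate block the log2 fold changes were −0.27 for miR-378a-3p, −0.11 for miR-378i and −0.30 for miR-378e. The exact sign-flip p of the share was 0.375, in a test where 4 pairs allow no p under 0.05. The alternatives that need miR-378a-5p were not run. Depth limits the precision of miR-378e, with 137 to 246 counts, more than that of miR-378a-3p or miR-378i.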

Other observations

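The deposited length of miR-378i was 22 nucleotides and that of its RefSeq mature sequence 21, while both were 22 for miR-378a-3p. Of the 903 known entries, 796 matched a RefSeq mature name, and in 375 the lengths were equal, in 276 the deposited one was longer and in 145 shorter. In 84.5% they differed by at most 1 nucleotide.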
